A study of Mus musculus with 6 samples.

Results

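The RNA levels of 10 genes that encode non-collagen proteins of bone matrix and its mineralization were followed in mouse subchondral bone of the mandibular condyle, the head of the jaw bone in the temporomandibular joint. The genes were Bglap, Bglap2, Ibsp, Spp1, Sparc, Alpl, Phospho1, Smpd3, Enpp1 and Ifitm5. They were taken by name from a table of 23170 genes, and all 10 were found in it. The study has 6 RNA-seq libraries, 3 from mice with a sham operation and 3 from mice with partial discectomy, in which part of the joint disc is removed. All mice were labelled wild type, with no further strain name, and the age label P6w+PO2w was shared by both groups. Surgery was done on 1 side, and bone was taken from the operated joint, per the labels' protocols. Descriptions of the sham samples carry the letters Rctrl and those of the other group LPD, which no label explains, so that anything else they stand for cannot be told apart from the operation. The number 6 stands before these letters in both Sham 3 and PD 3, and no other number occurs in both groups. Whether it marks a shared animal, and whether each library came from its own mouse, is not stated in the labels, and part of the spread between libraries may be technical.

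Bone is built as a collagen scaffold that osteoblasts fill with mineral. Osteocalcin, bone sialoprotein, osteopontin and osteonectin are the main non-collagen proteins of that scaffold. They bind calcium or apatite, and several also bind cell surface integrins. Mineral starts in matrix vesicles, where phosphatases release phosphate and remove pyrophosphate, a strong inhibitor of crystal growth. In the condyle this takes place under the joint cartilage, where cartilage is replaced by bone.

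What could be read for each gene were summaries by the authors and not single libraries. The authors' deposited table gives the mean of each group, the highest of the 6 libraries, the total, the geometric mean, the ratio of the partial discectomy mean to the sham mean with 95% limits, and a p-value with its adjustment over all genes. The values are normalized expression with no unit named. They hold a floor of 1, the lowest value any gene reached. Library totals and sequencing depth are unknown. Calls rest on an adjusted p under 0.05 by the authors' model, which no source used here names.

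None of the 10 genes was called higher or lower after partial discectomy in the authors' deposited table, where 2.38% of all genes were called. At an unadjusted p under 0.05 the count was also 0, where 14.2% of all genes passed, and none of the 10 had 95% limits on 1 side of equal means, where 14.7% of all genes did. In the authors' deposited table the ratio was above 1 for 9 of the 10 genes and below 1 for Enpp1. Over all genes that share was 62.7%, and it was 70.8% over the 10286 genes with a mean of at least 5 above the floor, which include all 10. The 10 genes were read in the same 6 libraries, so their directions do not count as separate observations. Their median log2 ratio, from the authors' deposited table, was 0.52, beside 0.08 over all genes. For the 5 matrix proteins, which count both osteocalcin copies, it was 0.76, and for the 4 enzymes 0.30. The difference between these 2 lists was not tested. As these are bulk samples, a changed number of cells of a type and changed RNA per cell cannot be told apart.

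**Figure D1:**
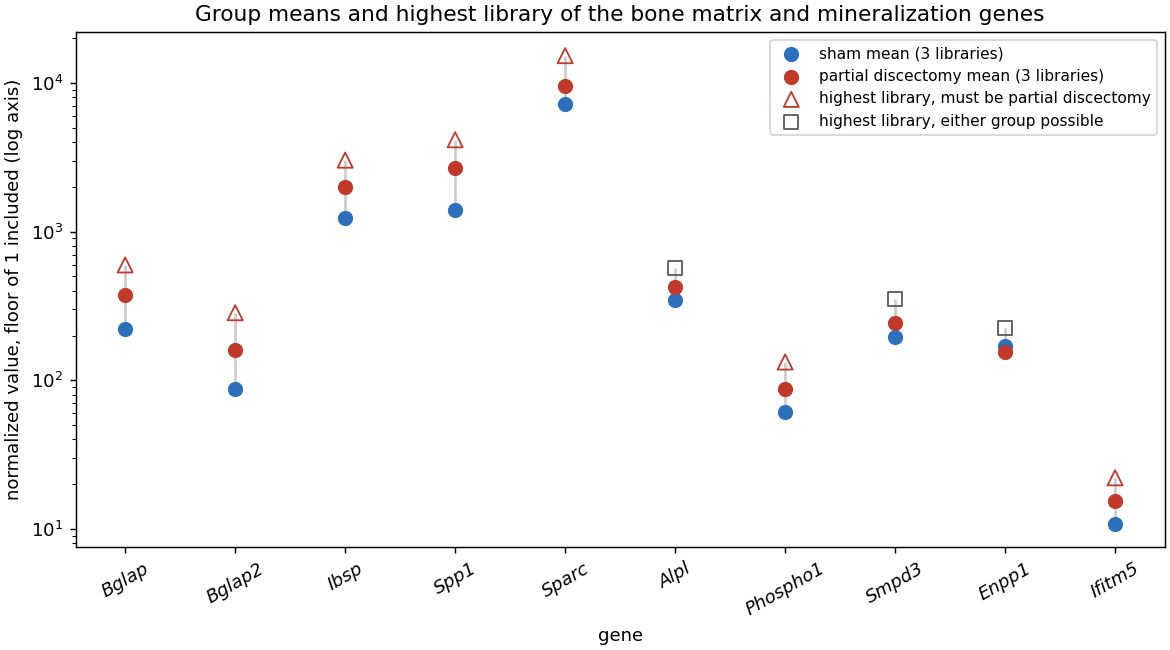
Group means of the 10 genes (filled circles, blue for sham and red for partial discectomy, 3 libraries each) and the highest single library (open symbols) in normalized units with the floor of 1 included, on a log axis. The partial discectomy mean lies above the sham mean for every gene but Enpp1, and the highest library lies well above both means.

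Osteocalcin is the vitamin K-dependent protein of mature osteoblasts, and mice carry neighbouring copies of its gene. Bglap lies on the minus strand of chromosome 3 at 88383501 to 88384464, and Bglap2 at 88377736 to 88378699 (GENCODE M21, GRCm38, the build listed as mm10 in the submitters' processing notes), with 4801 bases between them. The coding sequences of both are shown because they decide how far reads can be given to 1 gene or the other. They are taken from the GENCODE transcripts, 5′ to 3′, with the bases that differ between them in capitals.
Bglap: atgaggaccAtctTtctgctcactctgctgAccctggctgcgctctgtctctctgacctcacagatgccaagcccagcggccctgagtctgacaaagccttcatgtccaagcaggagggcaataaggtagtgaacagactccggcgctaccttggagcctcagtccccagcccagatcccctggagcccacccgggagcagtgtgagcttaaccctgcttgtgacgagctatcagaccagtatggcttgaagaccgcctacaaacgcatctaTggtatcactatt
Bglap2: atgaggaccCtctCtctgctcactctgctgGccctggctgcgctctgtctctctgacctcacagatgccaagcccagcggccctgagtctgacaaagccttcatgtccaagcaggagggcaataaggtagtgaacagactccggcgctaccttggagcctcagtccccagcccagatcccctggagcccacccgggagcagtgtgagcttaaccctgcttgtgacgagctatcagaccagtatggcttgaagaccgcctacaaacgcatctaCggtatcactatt
Over 285 coding bases the genes differed at 4, an identity of 98.6%, and the longest run without a difference was 241 bases. Of all stretches of 50 bases in the Bglap transcript 74.7% also occurred in Bglap2 or in the third copy, Bglap3, and for Bglap2 this share was 88.2%. How the authors assigned such reads is not given in the sources used here, so the split between Bglap and Bglap2 is uncertain.

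The Bglap mean in the authors' deposited table was 372 after partial discectomy and 220 in sham, which gives a ratio of 1.69 (95% limits 0.394 to 7.27, adjusted p = 0.571). The highest of the 6 Bglap libraries stood at 597, or 2.72 times the sham mean, in the authors' deposited table. The Bglap2 mean was 160 after partial discectomy and 87.6 in sham, which gives a ratio of 1.82 (0.571 to 5.80, adjusted p = 0.583), by the authors' deposited table. Its highest library stood at 285, which exceeds the whole sham total of 263, in the authors' deposited table. Both copies thus had a higher mean after partial discectomy, with limits that reach from a fall to a rise of over 5 times. With the floor subtracted, Bglap stood at 2.34 times Bglap2 after partial discectomy and at 2.53 times in sham, by the authors' deposited table. Summed over both copies, which removes the question of how reads were split between them, the ratio computed from the authors' deposited table was 1.73.

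The deposited columns also fix in which group the highest library of a gene must lie. The highest value, the total, the geometric mean and both group means leave only some sets of 3 and 3 library values possible, and these sets were searched for each gene. For Bglap, Bglap2, Ibsp, Spp1, Sparc, Phospho1 and Ifitm5, which are 7 of the 10, every possible set had the highest library in the partial discectomy group. For Alpl, Smpd3 and Enpp1 either group was possible. Over 10285 genes with a mean of at least 5 above the floor, the highest library had to be a partial discectomy library in 50.5% and a sham library in 14.7%. Which of the 3 partial discectomy libraries was the highest is not known, and it need not be the same one for each gene.

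For 9 of the 10 genes the libraries of the groups had to overlap, that is, at least 1 partial discectomy library lay below at least 1 sham library. Over the same 10285 genes the groups had to overlap in 59.8% and could not overlap in 12.7%. Spp1 was the exception among the 10, with both outcomes possible. By these sets, which rest on the authors' deposited table, the lowest partial discectomy library of Bglap lay between 25.0 and 259 and the middle one between 259 and 494. The lowest, middle and highest sham libraries of Bglap lay between 18.9 and 207, between 61.0 and 320, and between 230 and 539. So the osteocalcin levels of single libraries may have differed several-fold inside each group.

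**Figure D2:**
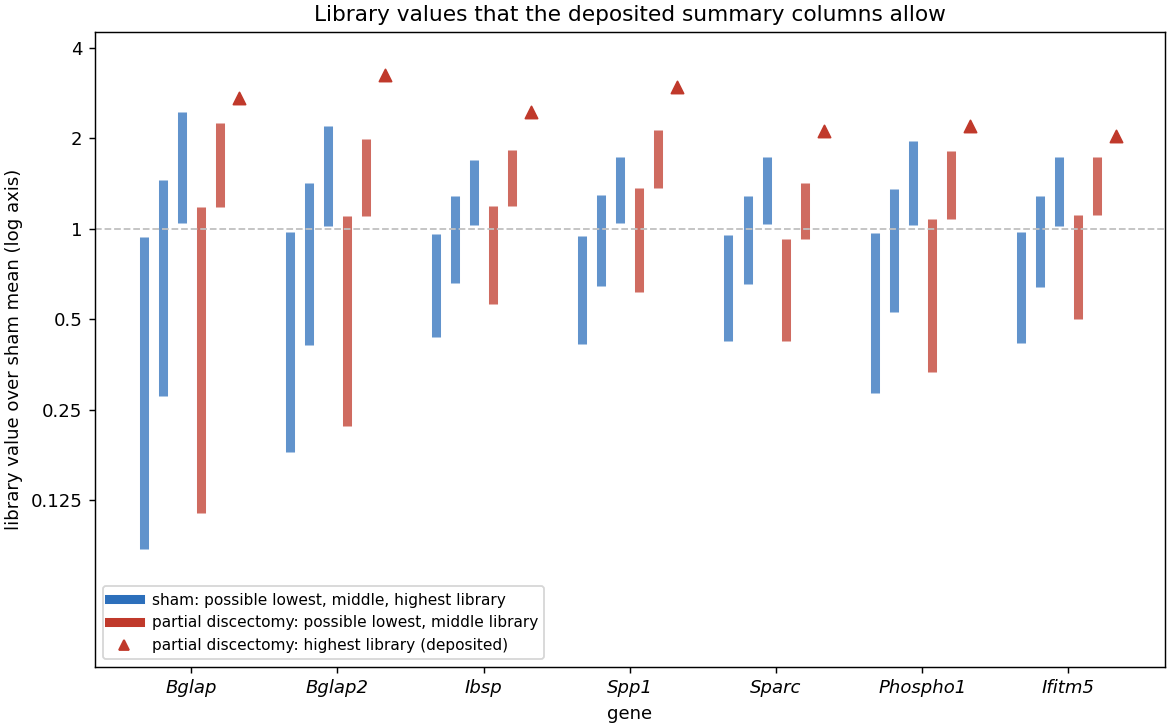
Ranges of the single library values that the deposited columns allow for the 7 genes whose highest library must be a partial discectomy library, divided by the sham mean, on a log axis. Blue bars are the lowest, middle and highest sham library, red bars the lowest and middle partial discectomy library, and triangles the highest library, which for Bglap stands at 2.72 times the sham mean. Blue and red bars overlap for every gene, but the red bars leave out the highest partial discectomy library. For Ibsp and Spp1 the red bars reach above the blue ones.

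Bone sialoprotein and osteopontin are acidic phosphoproteins that bind integrins through an RGD sequence. Bone sialoprotein favours the first crystals, and osteopontin restrains crystal growth and anchors osteoclasts. Ibsp and Spp1 lie on the plus strand of chromosome 5, at 104299171 to 104311469 and 104435118 to 104441050 (GENCODE M21, GRCm38). The Ibsp mean in the authors' deposited table was 1992 after partial discectomy and 1240 in sham, which gives a ratio of 1.61 (0.690 to 3.74, adjusted p = 0.646), and the highest library stood at 3024. Spp1 had the largest ratio of the 10 genes in the authors' deposited table, with means of 2664 after partial discectomy and 1401 in sham, which gives a ratio of 1.90 (0.769 to 4.70, adjusted p = 0.512). The highest Spp1 library stood at 4145 in the authors' deposited table, 2.96 times the sham mean. The other 2 Spp1 libraries of that group had a mean of 1924, computed from the authors' deposited table, and the highest sham library lay between 1460 and 2430. Spp1 shares 309 of its 1648 exonic bases with Gm42793, a gene model on the same strand, which had a far lower level (20.6 and 13.8) in the authors' deposited table.

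Spp1 is also made by osteoclasts and macrophages, and Ibsp and Spp1 by hypertrophic chondrocytes. Markers of these cells were in the same libraries. For comparison with their counts, 2.38% of all genes were called, 14.2% reached an unadjusted p under 0.05 and 62.7% had ratios above 1. Among genes with a mean of at least 5 above the floor 70.8% had ratios above 1. Of 9 osteoclast markers 0 were called by the adjusted p in the authors' deposited table, 4 were higher at an unadjusted p under 0.05, all 9 had ratios above 1, and their summed level above the floor was 3278 after partial discectomy and 1728 in sham. Acp5, the tartrate-resistant acid phosphatase of osteoclasts, had a ratio of 2.13 (0.974 to 4.66, adjusted p = 0.370), by the authors' deposited table, and Mmp9, a protease of osteoclasts and neutrophils, 1.92. Of 8 macrophage markers 5 had ratios above 1 and 0 were called in the authors' deposited table, with summed levels of 318 and 215. At an unadjusted p under 0.05, 2 of them were higher and 0 lower. For the 5 hypertrophic chondrocyte markers, 3 of which had ratios above 1 and 0 of which were called, the summed levels in the authors' deposited table were 2223 and 1730, and Col10a1, the collagen that defines these cells, had a ratio of 0.758 (0.238 to 2.42). Mmp13, a collagenase of hypertrophic chondrocytes and osteoblasts, had a ratio of 1.74 (0.912 to 3.31, adjusted p = 0.404), by the authors' deposited table. No marker of these 3 lists was at the floor in either group, which held for every marker list read. Their part in the Spp1 and Ibsp values was not tested.

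Osteonectin, the product of Sparc, binds collagen and calcium and is abundant in bone. Sparc lies on the minus strand of chromosome 11 at 55394500 to 55423183 (GENCODE M21, GRCm38). It had the highest group means of the 10 genes in the authors' deposited table, 9538 after partial discectomy and 7236 in sham, which gives a ratio of 1.32 (0.349 to 4.98, adjusted p = 0.899). The highest Sparc library stood at 15254 in the authors' deposited table and had to be a partial discectomy library. It held 53.3% of the Sparc total of that group, where an even spread gives 33.3%. Without it the other 2 partial discectomy libraries had a mean of 6680, and the ratio computed from the authors' deposited table was 0.923. That ratio is lowered by construction, because the highest sham library, between 7530 and 12500, stayed in. Whether the direction for Sparc rests on 1 library is therefore not known. Sparc is made by endothelial cells and megakaryocytes as well. All 7 endothelial markers had ratios above 1 and 0 were called in the authors' deposited table, with summed levels above the floor of 241 and 171. At an unadjusted p under 0.05, 1 of them was higher, where 14.2% of all genes passed in either direction. Of 7 megakaryocyte and platelet markers 5 rose, where 2.28% of all genes did. The summed levels of these markers were 39.0 and 3.75 in the authors' deposited table. Their part in the Sparc values was not tested.

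The enzyme ratios lay below those of the osteocalcin copies, Ibsp and Spp1, but that of Phospho1 lay above the 1.32 of Sparc. These differences were not tested. Alpl encodes tissue-nonspecific alkaline phosphatase, which splits pyrophosphate and is the standard enzyme marker of osteoblasts (chromosome 4, 137741733 to 137796384, minus strand). Its mean in the authors' deposited table was 427 after partial discectomy and 348 in sham, which gives a ratio of 1.23 (0.600 to 2.50, adjusted p = 0.786), with a highest library of 567. Phospho1 encodes the phosphatase that frees phosphate from phosphocholine inside matrix vesicles (chromosome 11, 95824499 to 95832140, plus strand). The Phospho1 mean in the authors' deposited table was 87.7 after partial discectomy and 60.7 in sham, which gives a ratio of 1.44 (0.652 to 3.20, adjusted p = 0.567), with a highest library of 133. Smpd3 encodes neutral sphingomyelinase, which makes phosphocholine from membrane lipid (chromosome 8, 106252548 to 106337988, minus strand). The Smpd3 mean in the authors' deposited table was 244 after partial discectomy and 197 in sham, which gives a ratio of 1.24 (0.599 to 2.56, adjusted p = 0.697), with a highest library of 351. The possible library values of all 3 enzymes overlapped between the groups.

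Phospho1 lies almost wholly inside exons of other gene models. Of its 2029 exonic bases 89.6% are also exonic in transcripts annotated to Zfp652 on the same strand, and 84.2% in Abi3, a gene of blood cells, on the opposite strand (GENCODE M21). Of all stretches of 50 bases in the Phospho1 transcript 86.2% occur in a Zfp652 transcript. By the authors' deposited table the Zfp652 ratio was 1.08 (0.795 to 1.46, adjusted p = 0.852) and that of Abi3 1.78 (1.04 to 3.04, adjusted p = 0.230). Whether the counting used strand is not given in the sources used here, so reads of these genes cannot be told apart and the Phospho1 value is uncertain.

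Enpp1 encodes the enzyme that makes pyrophosphate outside the cell and so opposes mineral formation (chromosome 10, 24637914 to 24712159, minus strand). It was the 1 gene of the 10 with a lower mean after partial discectomy in the authors' deposited table, 154 beside 171 in sham, which makes a ratio of 0.906 (0.562 to 1.46, adjusted p = 0.796). Its limits were also the narrowest of the 10, at 0.69 on the log2 scale to either side. A rise beyond 1.46 times or a fall below 0.562 lies outside the limits of the authors' deposited table. The highest Enpp1 library stood at 226 in the authors' deposited table and could belong to either group.

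Ifitm5 encodes a membrane protein found mainly in osteoblasts that are forming mineral (chromosome 7, 140948958 to 140950291, minus strand). Its level was the lowest of the 10 in the authors' deposited table, 15.4 after partial discectomy and 10.9 in sham, which gives a ratio of 1.42 (0.743 to 2.71, adjusted p = 0.599). The highest library stood at 22.1 in the authors' deposited table. With the floor subtracted the ratio was 1.46. Of its 765 exonic bases 29.7% are shared with Gm45717 on the same strand.

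**Figure D3:**
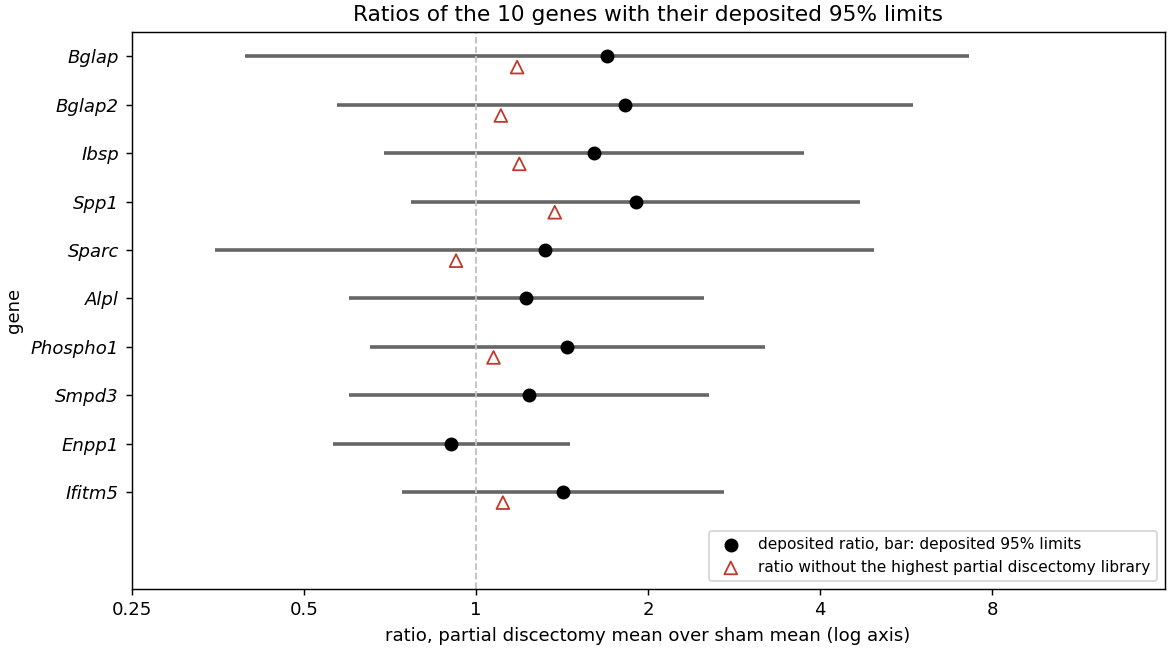
Ratios of the partial discectomy mean to the sham mean for the 10 genes (black points) with the deposited 95% limits (bars), on a log axis, and the ratio without the highest partial discectomy library where its group is certain (open triangles). Every bar crosses 1, and the triangles stand between 0.923 for Sparc and 1.37 for Spp1.

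Without the highest library, the ratios of the 7 genes for which its group is certain moved towards 1 or below. Leaving out the highest value of 1 group alone lowers that group's mean by construction, and the highest sham library stays in. By the authors' deposited table the ratios then were 1.18 for Bglap, 1.11 for Bglap2, 1.19 for Ibsp, 1.37 for Spp1, 0.923 for Sparc, 1.07 for Phospho1 and 1.11 for Ifitm5. The share of the highest library was 59.5% of the partial discectomy total for Bglap2 and 47.7% for Ifitm5 in the authors' deposited table, with the other 5 genes between these values. The median ratio of the 10 genes went from 1.43 to 1.15.

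The limits of these genes were wide for this table. Among the 10286 genes with a mean of at least 5 above the floor the median distance from the ratio to either limit was 0.48 on the log2 scale, so that a ratio of 1.40 or its inverse would have cleared the limits. For Bglap a ratio of 4.29 would have been needed, for Bglap2 3.19 and for Sparc 3.77, and for the other 7 genes one between 1.61 and 2.47, by the authors' deposited table. This distance lay at percentile 87.9 for Enpp1, the lowest of the 10, and at percentile 99.8 for Bglap. Wide limits went with a high level in this table. Among genes within 2-fold of its own mean, the distance was at percentile 99.3 of 280 genes for Bglap and 99.5 of 1190 for Bglap2, but at 76.9 of 39 for Ibsp and 82.4 of 34 for Spp1. The median ratio needed to clear the limits was 1.54 among the genes around Bglap and 2.08 among those around Spp1. For Sparc 4 genes, itself included, lay in that range.

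**Figure D4:**
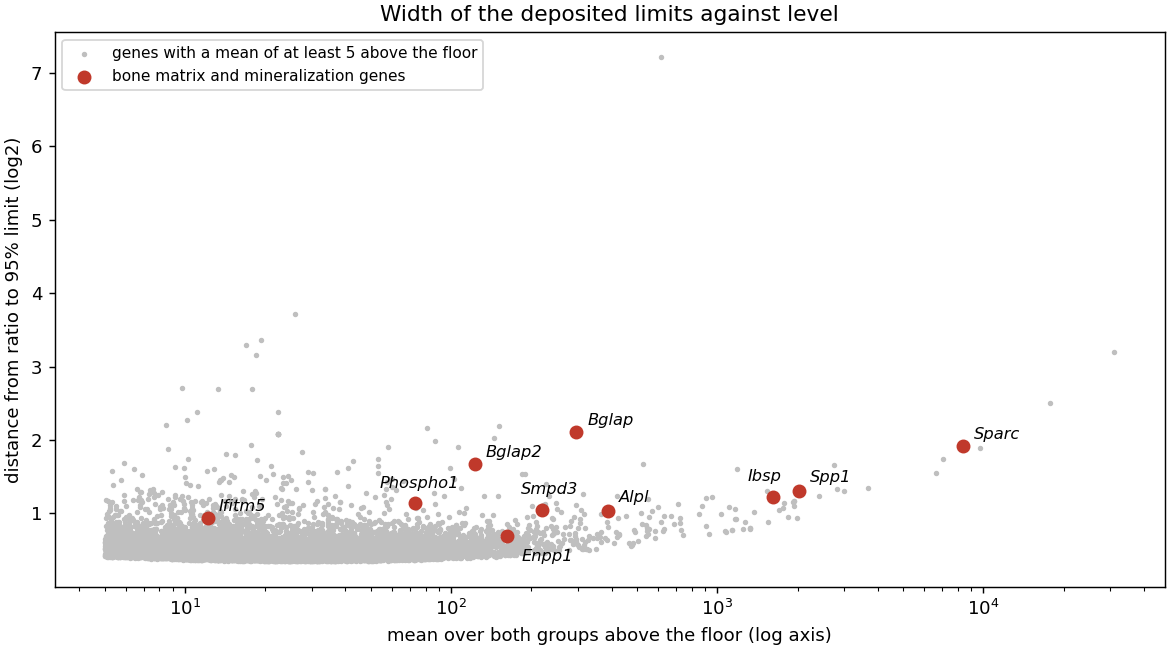
Distance from the deposited ratio to either 95% limit on the log2 scale against the mean over both groups above the floor (log axis), for the genes with a mean of at least 5 (grey) and the 10 bone matrix and mineralization genes (red). The grey cloud rises at high levels, and Bglap (2.10) and Bglap2 (1.67) stand above genes of like level while Ibsp, Spp1 and Sparc lie within the rise. Phospho1, Smpd3 and Ifitm5 also lie above most genes of like level.

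Set per length, the matrix proteins were among the highest genes of the tissue. The level above the floor was divided by the length of the principal GENCODE transcript and ranked over 15159 protein-coding genes. Sparc ranked 3 in both groups, with 4150 units per kb after partial discectomy and 3150 in sham, from the authors' deposited table. Spp1 ranked 5 after partial discectomy and 14 in sham, Ibsp 15 and 21, and Bglap 18 and 24. Bglap2 ranked 38 and 54, Alpl 73 and 66. The vesicle enzymes Smpd3 and Phospho1 ranked 335 and 355 after partial discectomy, Enpp1 894, and Ifitm5 1173 with 18.9 units per kb by the authors' deposited table. With all annotated exons as the length Sparc again ranked 3 and Spp1 4 after partial discectomy, while Smpd3 moved to 204, Phospho1 to 225 and Ifitm5 to 619. Neighbours in this order were not tested against each other. The 10 genes together made up 2.97% of the summed signal above the floor after partial discectomy and 2.28% in sham, and Sparc alone made up 61.0% and 66.0% of their sum, by the authors' deposited table.

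Promoter sequence from RefSeq (GRCm38.p6, 250 bases before to 50 after each start) was at hand for 8 of the 10 genes, all but Bglap2 and Smpd3. The windows were searched on both strands for ACCACA, the core bound by Runx2, the transcription factor that drives osteocalcin. It occurred in windows of 4 genes, Bglap, Enpp1, Sparc and Spp1, in 4 of 10 windows, and in 16.8% of all 32851 windows. Those of Bglap and Spp1, the matrix genes that stand for osteocalcin and for the largest ratio, are shown with the motif in capitals.
Bglap, chr3:88384417-88384716, minus strand: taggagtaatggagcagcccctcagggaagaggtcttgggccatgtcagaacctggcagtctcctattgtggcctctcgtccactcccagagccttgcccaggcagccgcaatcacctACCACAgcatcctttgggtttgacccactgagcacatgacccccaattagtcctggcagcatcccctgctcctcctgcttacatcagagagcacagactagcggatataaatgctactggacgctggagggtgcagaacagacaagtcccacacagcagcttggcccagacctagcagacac
Spp1, chr5:104434861-104435160, plus strand: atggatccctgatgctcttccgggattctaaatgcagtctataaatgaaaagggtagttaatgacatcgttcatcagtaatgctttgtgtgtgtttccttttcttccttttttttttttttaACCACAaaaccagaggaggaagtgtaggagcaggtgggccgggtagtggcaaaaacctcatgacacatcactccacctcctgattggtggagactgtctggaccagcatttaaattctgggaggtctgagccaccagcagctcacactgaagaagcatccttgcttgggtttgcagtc
The match begins 132 bases before the start in Bglap and 128 before it in Spp1. A match is a description of the letters, and no binding was measured. By the authors' deposited table Runx2 itself had means of 198 after partial discectomy and 226 in sham, which gives a ratio of 0.877 (0.629 to 1.22, adjusted p = 0.730).

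Other genes of bone matrix and mineralization were read from 8 lists with 61 genes, of which 53 were in the table. Of these 2 rose, 0 fell and 39 had ratios above 1 in the authors' deposited table, and their median log2 ratio was 0.13. An unadjusted p under 0.05 was reached by 4 higher and 3 lower genes. Over all genes 2.38% were called in either direction, 62.7% had ratios above 1 and 14.2% reached an unadjusted p under 0.05. Among genes with a mean of at least 5 above the floor, 70.8% had ratios above 1. The 2 genes that rose were Itga4 and Ifitm6, and neither is a bone matrix gene. Itga4, an integrin chain of blood cells that binds osteopontin, rose 3.27-fold (2.37 to 4.53, adjusted p = 0.00937), from 25.5 to 83.6 in the authors' deposited table. Ifitm6, a relative of Ifitm5 found in myeloid cells, rose 8.04-fold (4.28 to 15.1, adjusted p = 0.0104), from 1.79 to 14.4 in the authors' deposited table. Its highest library made up 58.8% of the partial discectomy total, and without it the ratio computed from the authors' deposited table was 4.97. In the same libraries 7 of 8 neutrophil markers and 8 of 8 erythroid markers rose, with summed levels of 1213 beside 80.4 and of 227 beside 11.9 in the authors' deposited table. Their part in both rises was not tested.

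The genes closest to Ibsp and Spp1 by kind are the acidic phosphoproteins Dmp1 and Mepe of osteocytes, and Fam20c, the kinase that phosphorylates them. All 4 measured genes of that list had ratios above 1 and 0 were called in the authors' deposited table. Mepe, made by osteocytes, had means of 122 after partial discectomy and 51.9 in sham, which gives a ratio of 2.36 (0.972 to 5.72, adjusted p = 0.441), by the authors' deposited table. By the authors' deposited table the ratio was 1.81 (0.768 to 4.28, adjusted p = 0.449) for Dmp1, which seeds mineral around osteocytes, and 1.12 for Fam20c. The highest Mepe library held 59.3% of the partial discectomy total and that of Dmp1 48.9%, from the authors' deposited table. Without these libraries the ratios were 1.44 and 1.39.

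Genes that handle phosphate and pyrophosphate had 5 of 7 ratios above 1 and 0 calls in the authors' deposited table. The phosphate exporter Xpr1 had a ratio of 1.49 (0.982 to 2.26, adjusted p = 0.376), the osteocyte peptidase Phex 1.55 (0.534 to 4.47) and Ank, which lets pyrophosphate precursors out of the cell, 0.926 (0.598 to 1.43), all from the authors' deposited table. The limits of Ank, Enpp1 and Alpl all include 1, so no direction can be read for the genes that supply or remove extracellular pyrophosphate. Of 7 genes of vitamin K-dependent proteins and their enzymes 6 had ratios above 1 and 0 were called, and Mgp, the matrix inhibitor of calcification, had 1.12 (0.708 to 1.76) in the authors' deposited table. Gas6 and Pros1, related vitamin K-dependent proteins that act on receptor kinases, had 1.21 and 1.05 in the authors' deposited table. Among 8 enzymes of sphingomyelin and phosphocholine, 7 had ratios above 1 and 0 were called, with a median log2 ratio of 0.10 in the authors' deposited table. Sgms2, a sphingomyelin synthase of bone, had a ratio of 1.02 (0.523 to 1.99), Sgms1 0.877 and the choline kinase Chka 1.08 in the authors' deposited table.

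Relatives of Sparc lay on the other side of equal means. By the authors' deposited table all 6 measured relatives had ratios below 1, with a median log2 ratio of -0.85, and 0 were called. An unadjusted p under 0.05 was reached by 3 of them, all lower, in the authors' deposited table. Over all genes 14.2% reached it in either direction. Smoc2, a matrix protein with a Sparc-like calcium-binding domain, had means of 18.5 after partial discectomy and 42.6 in sham, which gives a ratio of 0.435 (0.268 to 0.706, adjusted p = 0.109), by the authors' deposited table. By the authors' deposited table the ratio was 0.491 (0.268 to 0.900, adjusted p = 0.386) for Sparcl1, also called hevin, and 0.908 (0.603 to 1.36) for Fstl1, a secreted glycoprotein of mesenchymal cells. The limits of Sparcl1 lay below 1 while its unadjusted p by the authors' model was 0.063. Limits and p-values thus did not always give the same answer for a gene. The highest library of Smoc2, Sparcl1 and Fstl1 had to be a sham library, where that of Sparc had to be a partial discectomy library. The difference between Sparc and its relatives was not tested.

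Of 9 osteoblast transcription factors 7 had ratios above 1 and 0 were called in the authors' deposited table, and their median log2 ratio was 0.28. Sp7, which is required for osteoblasts, had a ratio of 1.07 (0.687 to 1.67) in the authors' deposited table. The integrin chains Itgb1 and Itgav and the receptor Cd44, through which cells bind osteopontin, had ratios of 1.01, 1.24 and 1.07, by the authors' deposited table. Of the 7 receptor genes listed, 5 had ratios above 1 and 1, Itga4, was called. At an unadjusted p under 0.05, 2 were higher and 0 lower. The log2 ratios of this list ran from -0.37 to 1.71. Among relatives of Ifitm5, Ifitm2 had 1.05 and Ifitm3, an antiviral membrane protein, 1.31 (0.864 to 1.99) in the authors' deposited table.

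**Figure D5:**
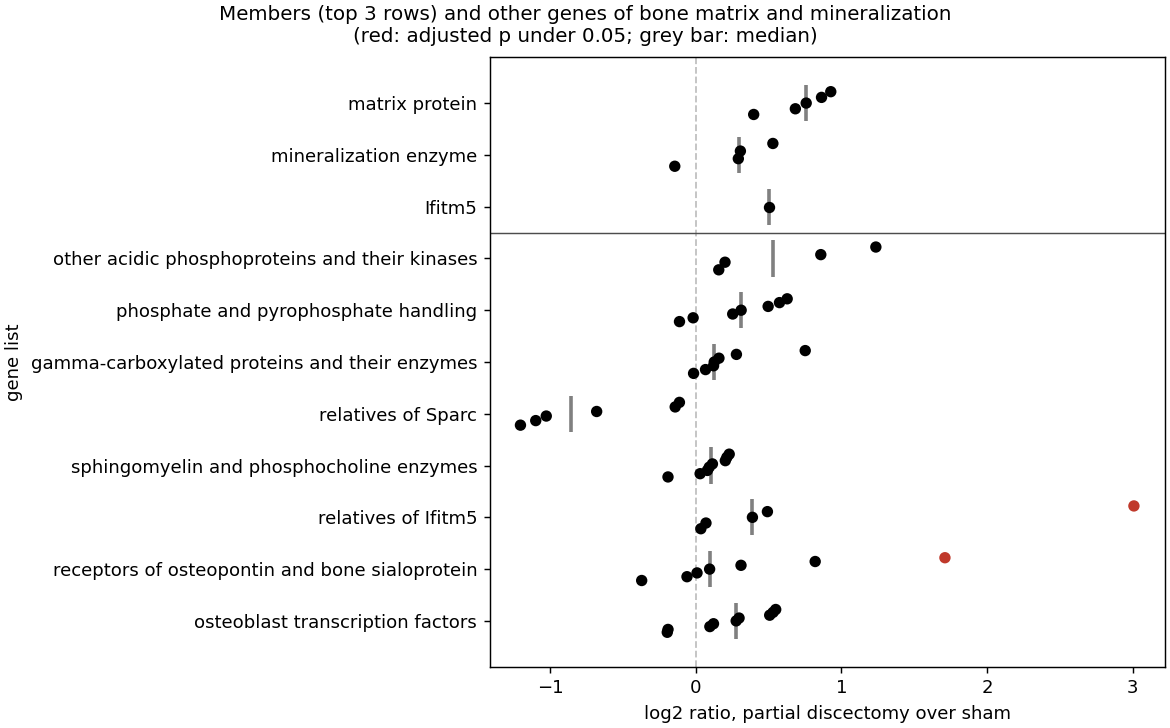
Log2 ratios of the 10 genes (top 3 rows) and of 53 other genes of bone matrix and mineralization by list, each point 1 gene, with grey bars at the medians and red for an adjusted p under 0.05. The relatives of Sparc lie below 0 with a median of -0.85, the matrix proteins above 0 with a median of 0.76, and the 2 red points are Itga4 and Ifitm6.

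The labelled tissue was checked against its markers in the authors' deposited table. All 8 osteoblast markers were above the floor in both groups, led by Col1a1 with means of 34180 and 27783, and all 7 osteocyte markers in the table were as well. This held for every marker list read, those of blood cells and muscle included, so it does not by itself tell the tissue. Cartilage markers were present too, with Col2a1 at 3181 after partial discectomy and 2305 in sham in the authors' deposited table, and so were 7 skeletal muscle markers with summed levels of 140 and 204. The 8 osteoblast markers had 7 ratios above 1 and 0 calls in the authors' deposited table, and their median log2 ratio was 0.32. The 7 osteocyte markers had 6 ratios above 1, 0 calls and a median log2 ratio of 0.63 in the same authors' deposited table. The osteoblast and osteocyte lists share Runx2, Sp7, Dmp1, Mepe and Phex with the lists described above. The osteoclast list shares a gene with the list of osteopontin receptors. All 7 B cell markers had ratios above 1 and 1 was called in the authors' deposited table, while all 7 were higher at an unadjusted p under 0.05. Of all genes 2.38% were called and 14.2% reached an unadjusted p under 0.05, in either direction. Of 7 chondrocyte markers 4 had ratios above 1 and 0 were called.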

How the data were processed

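RNA of 6 libraries in 2 groups of 3 was sequenced, and groups were taken from the sample titles. STAR 2.6.1d and build mm10 were used per the submitters' processing notes. How reads were counted, filtered and normalized, and by which model the groups were compared, is not given in the sources used here. The table deposited by the authors holds group means, totals, highest values and geometric means of a normalized signal, a ratio of group means, its log2 value, a p-value with its adjustment, and a signed fold change with limits, entered as a score because it can be negative. A second table held gene positions alone and was not used. A planned count-based test of the libraries could not be run on group means, so the authors' statistics were used.

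The adjusted p equalled the Benjamini-Hochberg adjustment over 23170 genes. The floor of 1 was read from the values. In the 13 genes with 1 library above it, the geometric mean matched a floor of 1 in the other libraries. Among 3135 genes whose highest value was under 0.5 above the floor, 1990 shared that value with another gene, so the unit did not appear to be divided by length. Signed limits were turned into ratios. Sets of 3 and 3 library values that fit the deposited columns were searched on a grid (numpy 2.4.6), tested on simulated data. Ends of possible ranges carry the grid's error. For 1 of 10286 genes no set was found. The genes named from other lists are the 3 with the highest mean and every called gene of each list, and the 2 with the highest mean of each marker list. One gene that this rule names is not reported here. Abi3, Zfp652, Gm42793 and Gm45717 were named for their overlap. The 10 genes and all lists were chosen with earlier results of these data known.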

Additional observations from a re-analysis of the deposited data

How the results depend on the processing

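No paired analysis was possible because the table holds group means and not single libraries, and for the same reason leaving out each replicate in turn and other count normalizations were not run. No call was made under any of the call rules tried. Ratios were also taken with the floor subtracted, against the median ratio of all genes and against the ratio of the summed group means. All 10 ratios kept their direction. Subtracting the same floor from both means cannot turn a direction, and the other settings divide every ratio by 1 common factor. So these settings do not test the directions gene by gene. The median ratio of the 10 genes, a summary added after seeing the data, was 1.43, between 1.31 and 1.46 under these 3 settings, and 1.15 without the highest library where its group is certain. That step was chosen after seeing the data, except for Bglap2, and turned Sparc to 0.923. The sum of Bglap and Bglap2 was added after seeing the data too. Over all genes 528 higher and 24 lower calls became 233 and 10 when adjusted over genes with a mean of at least 5 above the floor, 2532 and 767 at an unadjusted p under 0.05, and 2566 and 832 by the limits. For the 53 other genes of bone matrix and mineralization, 2 higher and 0 lower calls became 4 and 3 at an unadjusted p under 0.05, and by the limits, tried after seeing the data, 2 and 4. The depth is unknown, so what it limits cannot be given.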
